A study of Mus musculus with 12 samples.

Results

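L1_Mus, L1_Mur, L1_Mm, L1_Rod and L1VL are names that RepeatMasker, the program that labels repeat copies in a genome, gives to LINE-1 (L1) sequences in the mouse. They were chosen by name alone, as L1 family repeats whose name starts with L1_ or with L1VL. The rule gave 12 subfamilies (L1_Mus1, L1_Mus2, L1_Mus3, L1_Mus4, L1_Mm, L1_Mur1, L1_Mur2, L1_Mur3, L1_Rod, L1VL1, L1VL2 and L1VL4) of 1528 repeat names, of which 132 belong to L1. At the level of single copies it gave 30151 loci of 781935 repeat loci listed, of which 154660 are L1 loci. L1_Rod is taken in because its name fits the rule.

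RNA was sequenced from testes of C57BL/6 mice aged 3 months, all of them Mael-/-, so that no group in the comparisons carries a working Mael gene. The lysate, brought to 10 mM EDTA, made the TOTAL group. Pooled fractions 5 to 8 of a sucrose gradient of that lysate made the INPUT group, and an antibody against ORF1p pulled the IP group down from it. Beads without antibody, mixed with the same pool, made the BO (Beads Only) group, which measures background binding. Each of the 4 groups had 3 libraries, described by the submitters as biological replicates, and which animals went into each was not stated in the sources used here.

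L1 is an autonomous retrotransposon that copies itself through an RNA intermediate. Its RNA encodes ORF1p, an RNA-binding protein that coats the transcript, and ORF2p, which carries the endonuclease and reverse transcriptase, and both proteins bind preferentially to the RNA that encoded them. MAEL belongs to the piRNA pathway that silences transposons in male germ cells, and L1 RNA and protein accumulate in its absence. In the mouse, L1Md_A and L1Md_T hold most of the copies that can still move, L1Md_F2 is older, and Lx is an old rodent lineage made largely of truncated copies. These 4 names serve here as comparators. What the endings Mus, Mur, Mm, Rod and VL stand for was not stated in the sources used here.

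The reads assigned to repeat names numbered between 1384904 and 7282171 per library, and the 12 subfamilies took 0.903% to 3.65% of them. Values were deposited as normalized counts scaled to the upper quartile of each library. One library stood apart. BO replicate 3 had 52.1% of its reads on the large ribosomal RNA name LSU-rRNA_Hsa, against 1.93% to 15.9% in the other libraries, so the tests that involve BO, and the main shares, are also given without it. The locus means of BO include it and cannot be split. The share of reads on 7SLRNA, the RNA of the signal recognition particle, was 38.1% to 51.6% in TOTAL, 17.0% to 18.7% in INPUT, 1.16% to 1.63% in IP and 0.00882% to 0.224% in BO, and its part in the results was not tested. In the authors' TOTAL means, the germ cell genes Ddx4, Dazl, Sycp1, Sycp3 and Tex101 stood at 2611, 13894, 9433, 5739 and 1713 normalized counts, and the spermatid genes Prm1 and Acrv1 at 22.0 and 11.7. Genes of somatic testis cells were read as well, with Sox9 of Sertoli cells at 1591 and Cyp17a1 of Leydig cells at 29894, and Mael itself at 0.65. In such bulk RNA, fewer cells of a type and less RNA per cell cannot be told apart.

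IP vs BO asks which of these RNAs stood higher or lower in IP than in BO, relative to the other repeat names. Each library was scaled to the same upper quartile, so the values compare make-up and not the amount of RNA recovered. The paper's BO libraries took the RNA found in the volume used for the IP sample, whatever its amount. L1_Mm RNA was higher in IP, RNA of L1_Mur3, L1_Mur2, L1VL4, L1_Rod and L1_Mus1 was lower, and the other 6 subfamilies did not pass the test. No subfamily of the 12 changed by more than 1 on the log2 scale in either direction, the size at which L1Md_A (2.32 ± 0.20 SE) and L1Md_T (2.05 ± 0.22 SE) rose. Of all 1180 subfamilies with a mean of at least 10 normalized counts, which include all 12, 8.9% were past both the fold and the adjusted p threshold of 0.05, and none of the 12 was among them, nor at an unadjusted p, nor with edgeR or DESeq2. At the adjusted p alone, 11.3% of all subfamilies were higher in IP and 23.2% were lower, against 1 and 5 of the 12, so that the higher count is near the background and the lower count above it. The same 6 subfamilies passed without BO replicate 3. Among the other 118 L1 names tested, 11 were higher and 54 lower. The median log2 fold change was -0.16 over the 12 and -0.12 over all subfamilies tested.

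L1_Mm had 1747, 1723 and 1463 normalized counts in the IP libraries and 1005, 1101 and 935 in the BO libraries. INPUT libraries had 1163, 1058 and 927, and TOTAL libraries had 1616, 1214 and 1362. Every IP library stood above every BO and INPUT library, while IP and TOTAL overlapped. The log2 fold change of L1_Mm was 0.70 ± 0.12 (SE, n = 3) in IP over BO, with a limma adjusted p of 0.000866, and 0.64 without BO replicate 3. The authors' means summed over single L1_Mm loci gave -1.58 against BO, the opposite direction, and 0.59 without the locus L1_Mm_4279. Over INPUT it was 0.65 ± 0.12 (adjusted p = 0.00204), and over TOTAL 0.24 ± 0.12 (adjusted p = 0.183). These values rested on 583 to 2612 reads per library.

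**Figure D1:**
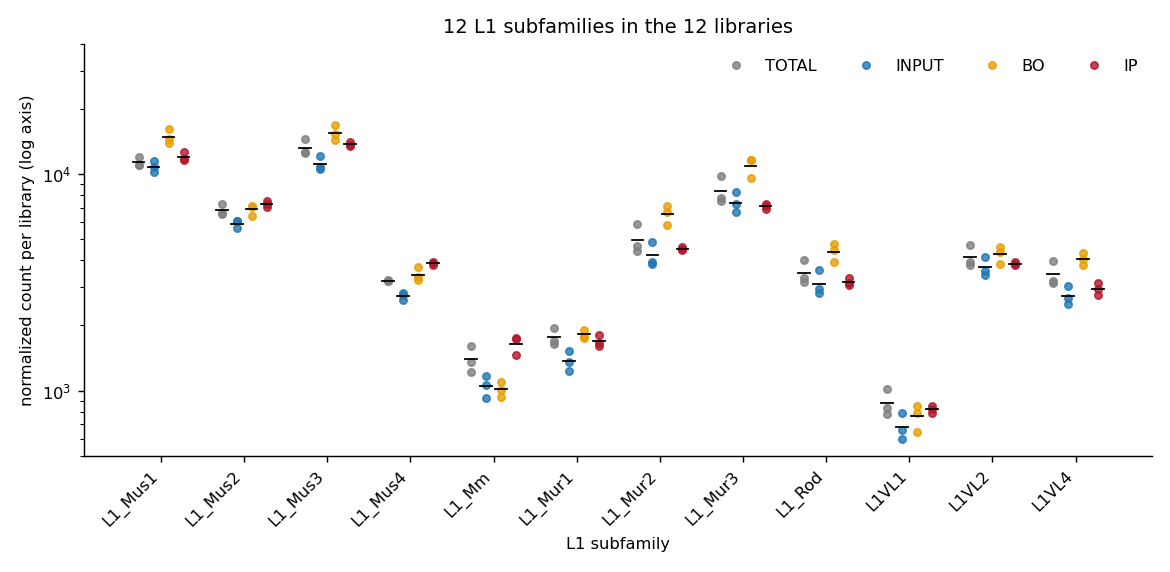
Normalized count (log axis) of each of the 12 subfamilies in each library, with 3 points per group (TOTAL, INPUT, BO, IP) and a bar at the group mean. The IP points of L1_Mm and L1_Mus4 lie above their BO and INPUT points, and the BO points of L1_Mur2, L1_Mur3, L1_Rod and L1VL4 lie above their IP points; compare heights within a subfamily only, since counts are not divided by length.

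In L1_Mus4 every IP library stood above every library of the other groups. It had 3946, 3818 and 3881 normalized counts in IP, 3738, 3350 and 3231 in BO, 2822, 2779 and 2617 in INPUT, and 3221, 3221 and 3230 in TOTAL. Its log2 fold change was 0.50 ± 0.07 over INPUT (adjusted p = 0.000197) and 0.27 ± 0.07 over TOTAL (adjusted p = 0.0131). Over BO it was 0.18 ± 0.07, which did not pass (adjusted p = 0.0556), although the groups did not overlap. With the replicate number as a block it passed there (adjusted p = 0.0327). The numbers pair IP and BO libraries only weakly, with correlations of -0.01, 0.08 and 0.10.

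L1_Mus1 had 12669, 11716 and 11595 normalized counts in IP and 16148, 14497 and 13905 in BO. IP was lower by 0.31 on the log2 scale (-0.31 ± 0.08, adjusted p = 0.00851). It did not pass with median-ratio factors (-0.18), edgeR (-0.17) or DESeq2 (-0.18), and was -0.35 without BO replicate 3. INPUT libraries had 11503, 10777 and 10212, and the difference of IP from INPUT was 0.15 ± 0.08 (adjusted p = 0.182), and 0.0299 as the adjusted p of the blocked fit.

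L1_Mus2 and L1_Mus3 were higher in IP than in INPUT and did not pass against BO in the limma fit without a block. L1_Mus2 had 7498, 7062 and 7262 in IP and 6049, 6053 and 5638 in INPUT, a log2 fold change of 0.30 ± 0.07 (adjusted p = 0.00663). L1_Mus3 had 13694, 13524 and 14140 in IP and 12108, 10858 and 10597 in INPUT, a change of 0.30 ± 0.08 (adjusted p = 0.0197), which did not pass without IP replicate 3, INPUT replicate 2 or INPUT replicate 3 (0.27 to 0.29). The IP over BO changes were 0.08 ± 0.07 for L1_Mus2 and -0.17 ± 0.08 for L1_Mus3, the latter with an adjusted p of 0.142 and, with the block, 0.0470.

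All 3 L1_Mur names had their highest group mean in BO. L1_Mur3 had 11579, 11666 and 9638 normalized counts in BO and 6888, 7161 and 7319 in IP. L1_Mur2 had 7107, 6690 and 5843 in BO and 4452, 4530 and 4610 in IP. The IP and BO libraries of both names were separate, with log2 fold changes of -0.62 ± 0.11 for L1_Mur3 (adjusted p = 0.00136) and -0.53 ± 0.12 for L1_Mur2 (adjusted p = 0.00440). Without BO replicate 3 these were -0.71 and -0.61. TOTAL libraries, at 9787, 7776 and 7484 for L1_Mur3 and 5858, 4671 and 4402 for L1_Mur2, overlapped those of BO. Against INPUT neither passed. INPUT libraries had 8256, 7254 and 6666 for L1_Mur3 and 4874, 3944 and 3866 for L1_Mur2, ranges that overlap those of IP, and the changes were -0.05 ± 0.11 and 0.11 ± 0.12.

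Among the comparisons of IP, only that with INPUT passed for L1_Mur1. Its IP libraries had 1615, 1661 and 1816 normalized counts, its BO libraries 1913, 1784 and 1756 and its INPUT libraries 1528, 1350 and 1227. IP overlapped BO (-0.10 ± 0.09, adjusted p = 0.450) and was higher than INPUT by 0.31 ± 0.09 (adjusted p = 0.0257). It did not pass when IP replicate 2, IP replicate 3, INPUT replicate 2 or INPUT replicate 3 was left out, with log2 fold changes between 0.24 and 0.33.

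L1_Rod had 3090, 3147 and 3332 normalized counts in IP and 4764, 4471 and 3924 in BO, a log2 fold change of -0.46 ± 0.11 (adjusted p = 0.00816), and -0.53 without BO replicate 3. INPUT, at 3602, 2950 and 2815, overlapped IP, and the change over INPUT was 0.04 ± 0.11.

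Of the 3 L1VL names, L1VL4 alone passed against BO. It had 3131, 2958 and 2754 normalized counts in IP and 4324, 4064 and 3792 in BO, and fell with a log2 fold change of -0.46 ± 0.10 (adjusted p = 0.00406), and -0.51 without BO replicate 3. In the authors' means summed over its loci the log2 ratio was -0.45, and 0.08 without the locus L1VL4_5738. For L1VL2 the IP libraries had 3913, 3829 and 3822 and the BO libraries 4632, 4356 and 3841, and for L1VL1 they had 847, 819 and 788 against 851, 786 and 643. Both overlapped, with changes of -0.15 ± 0.10 and 0.12 ± 0.13. Against INPUT, L1VL1 changed by 0.27 ± 0.13, L1VL4 by 0.10 ± 0.10 and L1VL2 by 0.06 ± 0.10, none of which passed; with the block L1VL1 did (adjusted p = 0.0408).

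**Figure D2:**
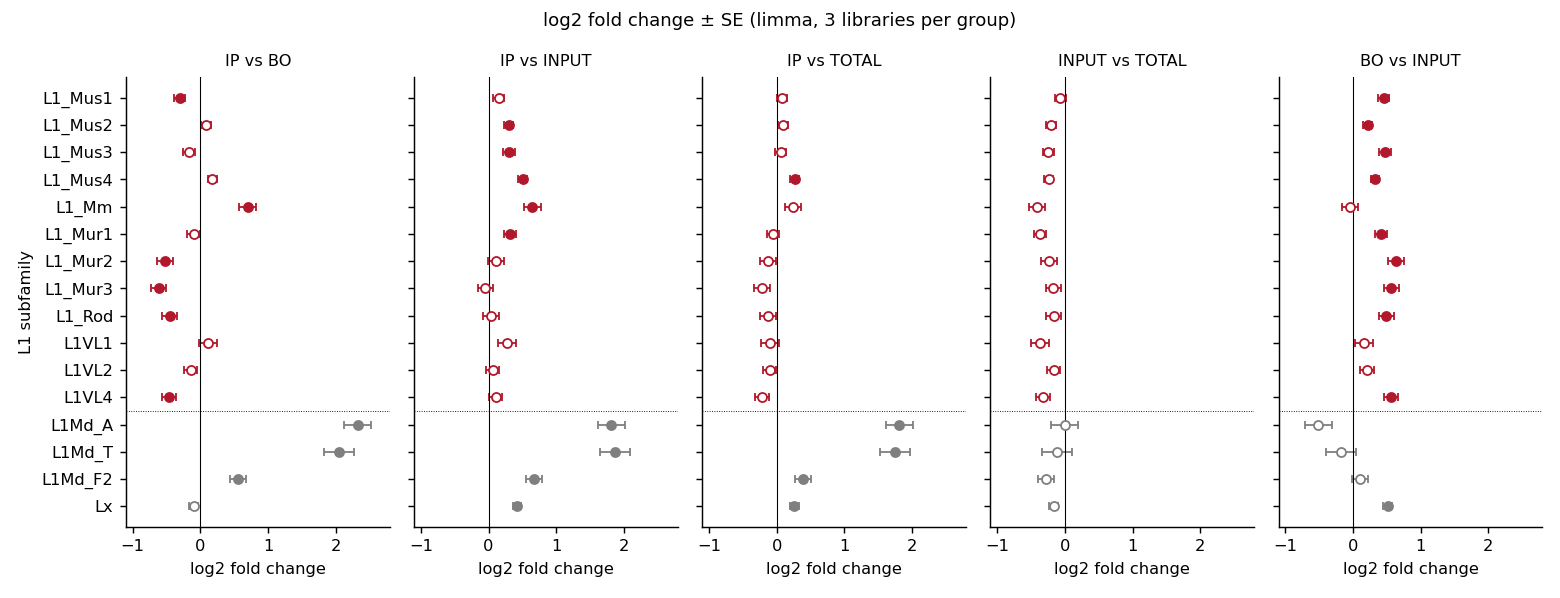
Log2 fold change ± SE (limma, 3 libraries per group) of the 12 subfamilies in red and of L1Md_A, L1Md_T, L1Md_F2 and Lx in grey, for each of 5 comparisons; filled points have an adjusted p under 0.05. The 12 lie between -0.62 and 0.70 in IP vs BO, where L1Md_A stands at 2.32 and L1Md_T at 2.05.

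IP vs INPUT compares the make-up of RNA on the beads with antibody with that of the pooled fractions. In it 5 of the 12 were higher and 0 were lower. The 5 were L1_Mm, L1_Mus4, L1_Mur1, L1_Mus3 and L1_Mus2. In BO vs INPUT, L1_Mus4 (0.33), L1_Mur1 (0.41), L1_Mus3 (0.47) and L1_Mus2 (0.22) were higher as well, and L1_Mm (-0.05) was not. Over all subfamilies 11.0% were higher and 16.7% lower at the adjusted p, and 6.1% were past the fold threshold as well, none of the 12 among them by limma, edgeR or DESeq2 or at an unadjusted p. Of the other 118 L1 names tested, 23 were higher and 8 lower. The count of 5 of 12 is above the share of all subfamilies. It was 3 without IP replicate 3, INPUT replicate 2 or INPUT replicate 3, beside 105, 86 and 97 of all 1180. Under scaling to library totals it was 2, beside 142 of all 1180, which is near the background. The median change of the 12 was 0.21, against -0.06 over all subfamilies. All 12 stood above that overall median, by 0.02 for L1_Mur3 up to 0.71 for L1_Mm. L1Md_F2 rose by 0.67 ± 0.12 and Lx by 0.42 ± 0.07 in the same comparison, so the values of L1_Mm and L1_Mus4 were of the size of these older comparators.

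In IP vs TOTAL, 1 of the 12 was higher (L1_Mus4) and 0 were lower; 10.2% of all subfamilies were higher and 12.5% lower, so the count of the 12 is near the background. Past the fold threshold were 6.36% of all subfamilies and none of the 12, by limma, edgeR or DESeq2 or at an unadjusted p. The 12 ranged from -0.22 (L1VL4) to 0.27 (L1_Mus4) with a median of -0.07, beside an overall median of -0.05. In the blocked fit L1VL4 passed as lower (adjusted p = 0.0192). IP vs BO, IP vs INPUT and IP vs TOTAL share their 3 IP libraries and are therefore not independent of each other.

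INPUT vs TOTAL compares the pooled fractions with the lysate. All 12 log2 fold changes were negative, from -0.41 ± 0.12 for L1_Mm to -0.07 ± 0.08 for L1_Mus1. None passed with limma. An unadjusted p under 0.05 was reached by 7 of the 12, beside 201 of all 1180 subfamilies in either direction. As lower, edgeR passed 1 of the 12 and 13 of all 1180, and DESeq2 passed 5 and 41. Of all subfamilies 0.847% passed as higher and 0.847% as lower, and 0.339% were past the fold threshold too. Libraries of TOTAL and INPUT with the same number deviated together, and with that number as a block 6 of the 12 passed as lower, beside 32 of all 1180 subfamilies as lower and 35 as higher. These were L1VL4 (adjusted p = 0.0120), L1_Mur1 (0.0395), L1_Mm (0.0431), L1_Mus4 (0.0440), L1VL1 (0.0440) and L1_Mus3 (0.0457), while L1_Mus2 did not (0.0563). The INPUT and TOTAL libraries of L1_Mm, L1_Mur1, L1_Mus2, L1_Mus3, L1_Mus4 and L1VL4 did not overlap, for example 1528, 1350 and 1227 against 1938, 1648 and 1699 normalized counts for L1_Mur1. How many of all subfamilies had no such overlap was not counted, so this list is a description only. For L1Md_A the change was 0.00 ± 0.20 and for L1Md_T -0.12 ± 0.22.

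BO vs INPUT compares the make-up of RNA on the bare beads with that of the pooled fractions. There, 9 of the 12 were higher in BO and 0 were lower. The 9 ran from L1_Mus2 (0.22 ± 0.07, adjusted p = 0.0318) to L1_Mur2 (0.63 ± 0.12, adjusted p = 0.00206), with L1_Mur3 at 0.57 ± 0.11, L1VL4 at 0.57 ± 0.10, L1_Rod at 0.49 ± 0.11, L1_Mus3 at 0.47 ± 0.08 and L1_Mus1 at 0.45 ± 0.08. L1_Mur1 (0.41) and L1_Mus4 (0.33) were also among the 9. The same 9 passed without BO replicate 3. L1_Mus2 did not pass with median-ratio factors (0.18), edgeR (0.14), DESeq2 (0.17) or the fit of BO and INPUT alone, nor without BO replicate 1 or 2 or INPUT replicate 2 or 3 (0.18 to 0.23). L1VL2 (0.21 ± 0.10), L1VL1 (0.16 ± 0.13) and L1_Mm (-0.05 ± 0.12) did not pass, though L1VL2 did with the block (adjusted p = 0.0417). Higher in BO were also 64 of the other 118 L1 names, beside 17.2% of all subfamilies (11.7% lower, and 5.42% past the fold threshold in either direction, none of the 12 by any of the 3 tools or at an unadjusted p). The median change of the 12 was 0.43, and over all subfamilies 0.03. L1Md_A moved the other way, at -0.51 ± 0.20 (adjusted p = 0.0824).

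Some of these results depend on how libraries are scaled. Scaling each library to its total of assigned reads moved the median of all subfamilies by 0.49 for IP vs BO, 0.54 for IP vs INPUT, 1.53 for IP vs TOTAL and 0.997 for INPUT vs TOTAL. None of the 5 lower in IP vs BO then passed, where 17 of all 1180 subfamilies did as lower. L1_Mur3 stood at -0.12 and L1_Mur2 at -0.031, and L1_Mus1 (0.19), L1_Rod (0.040) and L1VL4 (0.034) changed sign. All 12 then passed as higher in IP than in TOTAL, as did 1070 of all 1180 subfamilies, and 8 as higher in INPUT than in TOTAL, as did 923 of all, so these counts are near the background under that scaling. All 12 log2 fold changes in INPUT vs TOTAL changed sign to positive, from 0.59 to 0.94. Positive there were 1156 of all 1180 subfamilies. In IP vs INPUT only L1_Mm and L1_Mus4 still passed, beside 142 of all 1180 subfamilies as higher, so this count is near the background. The log2 fold changes of L1_Mur1, L1_Mus2 and L1_Mus3 were nevertheless larger, at 0.86, 0.84 and 0.85. In BO vs INPUT none of the 9 passed, where 20 of all 1180 did as higher, but no direction among the 9 changed and each log2 fold change was larger than before, from 0.27 (L1_Mus2) to 0.68 (L1_Mur2). Relative to the median of all subfamilies under each of the 3 scalings, 5 of the 12 lay above and 7 below for IP vs BO, all 12 above for IP vs INPUT, all 12 below in INPUT vs TOTAL, and 11 above and 1 below in BO vs INPUT. L1_Mm passed the adjusted p in the same direction against BO and INPUT under every alternative that was run, and L1_Mus4 against INPUT and TOTAL.

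Shares within a library do not depend on that scaling. The 12 subfamilies held 12.8%, 13.8% and 15.3% of all L1 counts in the IP libraries, 20.4%, 19.9% and 19.6% in BO, 17.8%, 18.7% and 18.3% in INPUT and 19.5%, 19.5% and 19.7% in TOTAL. The IP libraries lay below all 9 others. These L1 counts include L1Md_A and L1Md_T, so a larger share on those names leaves a smaller share for the 12. As a share of all LINE, SINE, LTR and DNA transposon counts, IP overlapped BO and TOTAL and lay above INPUT. The share of L1 counts without L1Md_A and L1Md_T was not calculated. L1Md_A and L1Md_T together held 35.3% ± 6.4 (SD, n = 3) of L1 counts in IP, 9.38% ± 0.44 in BO, 14.7% ± 2.2 in INPUT and 14.3% ± 1.7 in TOTAL. The IP libraries were highest there, with no overlap. For every count on L1Md_A and L1Md_T the 12 subfamilies had 0.409 ± 0.114 counts in IP, 2.13 ± 0.13 in BO and 1.38 ± 0.15 in TOTAL, and 1.04, 1.39 and 1.36 in the INPUT libraries. Without BO replicate 3 the mean log2 difference between IP and BO was -0.53 for the share of L1 counts (-0.52 with it) and -2.47 for this ratio (-2.42 with it). With 3 libraries against 3, an exact permutation test cannot give a p below 0.1, and none is given for these sums.

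Ratios to other L1 groups were taken in the same way. Per count on the 4 L1Md_F and L1Md_G names, the 12 subfamilies had 1.50 ± 0.17 counts in IP, 2.70 ± 0.06 in BO, 2.13 ± 0.10 in INPUT and 1.98 ± 0.05 in TOTAL, and IP was lowest with no overlap. Per count on the 21 Lx names the values were 0.718 ± 0.027, 0.695 ± 0.017, 0.693 ± 0.028 and 0.762 ± 0.054 in the same order, and IP overlapped each of the other groups. Per count on the 85 L1M names, ancient L1 copies shared by mammals, they were 0.668 ± 0.035, 0.604 ± 0.023, 0.597 ± 0.010 and 0.673 ± 0.005, and IP was above BO and INPUT with no overlap. Of all counts on LINE, SINE, LTR and DNA transposon names, the 12 subfamilies held 3.68% ± 0.11 in IP, 3.92% ± 0.27 in BO, 3.12% ± 0.15 in INPUT and 3.71% ± 0.21 in TOTAL.

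The make-up of the 12 also differed between groups. L1_Mus3 was the largest part in every group, at 22.0% ± 0.5 of the counts of the 12 in IP and 20.9% ± 0.3 in BO, followed by L1_Mus1 at 19.1% ± 0.8 and 19.9% ± 0.6. L1_Mur3 made up 11.4% ± 0.4 in IP, 14.7% ± 0.7 in BO, 13.4% ± 0.4 in INPUT and 13.2% ± 0.7 in TOTAL, lowest in IP with no overlap. L1_Mus4 made up 6.19% ± 0.03 in IP, 4.62% ± 0.15 in BO, 5.00% ± 0.24 in INPUT and 5.14% ± 0.47 in TOTAL, highest in IP with no overlap. L1_Mm made up 2.62% ± 0.25 in IP, 1.36% ± 0.10 in BO, 1.91% ± 0.08 in INPUT and 2.21% ± 0.16 in TOTAL, and was likewise highest in IP.

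Ratios chosen after their values were seen show this spread within single libraries. L1_Mm had 0.254, 0.241 and 0.200 counts per count of L1_Mur3 in the IP libraries, 0.0868, 0.0943 and 0.0970 in BO, 0.141, 0.146 and 0.139 in INPUT and 0.165, 0.156 and 0.182 in TOTAL. L1_Mus4 had 0.312, 0.326 and 0.335 counts per count of L1_Mus1 in IP, 0.231, 0.231 and 0.232 in BO, 0.245, 0.258 and 0.256 in INPUT and 0.269, 0.292 and 0.294 in TOTAL. In both ratios IP was highest and BO lowest, and the IP and BO libraries did not overlap those of any other group.

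**Figure D3:**
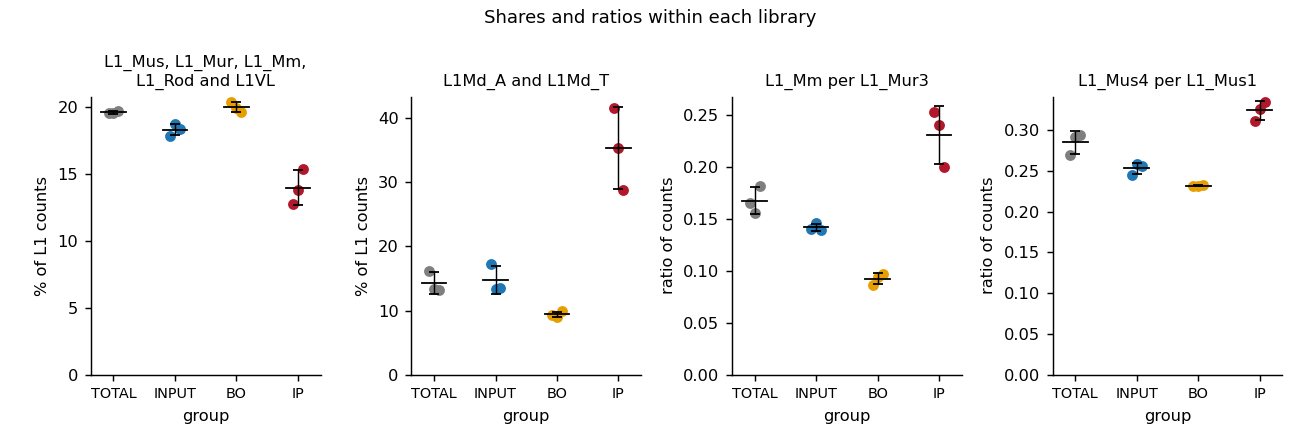
Shares and ratios of normalized counts within each library, by group: the percentage of L1 counts on the 12 subfamilies, the percentage on L1Md_A and L1Md_T, L1_Mm counts per L1_Mur3 count and L1_Mus4 counts per L1_Mus1 count. Points are libraries, long bars are means and whiskers are SD (n = 3); IP is lowest in the first panel and highest in the other panels.

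Single copies were available only as the authors' group means, in 3 tables that each pair IP with one other group and were normalized separately, so values are compared within a table and carry no error or test. Of the 30151 loci, 13612 (45.1%) were above 0 in IP, 12993 in TOTAL, 11949 in INPUT and 10486 in BO. The libraries differed in depth and the same counts over all repeat loci were not taken, so the order of the groups is a description only. Loci at 0 in all groups numbered 3488 and loci above 0 in all 4 groups 3788. The share above 0 in IP ran from 42.1% of 3829 L1_Mur3 loci to 50.0% of 968 L1VL2 loci. Signal was spread over many copies. In the table of IP and INPUT, 744 loci sufficed for 50% of the summed IP means, and the 10 highest loci held 5.55% of it, against 7.29% in INPUT. In the other tables the 10 highest held 11.6% of the summed BO means and 7.93% of the summed TOTAL means.

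Loci whose 2 group means averaged at least 10 numbered 296 for IP and BO, 332 for IP and INPUT and 370 for IP and TOTAL. Against BO, 77 of the 296 (26.0%) were at least 2 times higher in IP and 92 (31.1%) at least 2 times lower, beside 17.8% and 49.2% of all repeat loci and 35.4% and 35.5% of other L1 loci. Against INPUT, 117 of the 332 (35.2%) were higher and 45 (13.6%) lower, beside 23.0% and 32.2% of all repeat loci and 49.5% and 17.1% of other L1 loci. Against TOTAL, 100 of the 370 (27.0%) were higher and 54 (14.6%) lower, beside 25.4% and 25.8% of all repeat loci and 48.2% and 13.8% of other L1 loci. In each table the share higher in IP was thus above that of all repeat loci and below that of other L1 loci, though against TOTAL it was near the background. With a minimum average of 30 it was near the background against BO and INPUT also, at 13 of 63 loci (20.6%) beside 18.7% of all repeat loci and 18 of 68 (26.5%) beside 24.7%, and was 23 of 66 (34.8%) beside 29.9% against TOTAL. Median log2 ratios were -0.24, 0.50 and 0.14 against BO, INPUT and TOTAL, where all repeat loci had -0.96, -0.26 and 0.01. Divided by the median ratio of all loci, the counts against BO became 133 higher (44.9%) and 45 lower (15.2%), beside 31.0% and 27.8% of all repeat loci.

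By name, L1_Mus loci gave most of these: 58 higher and 56 lower of 194 against BO, 84 and 33 of 227 against INPUT, and 75 and 28 of 237 against TOTAL. L1_Mur loci had 5 higher and 16 lower of 43 against BO, 11 and 4 of 40 against INPUT and 8 and 16 of 60 against TOTAL. L1_Rod loci had 2 higher and 8 lower of 16 against BO, 4 and 1 of 16 against INPUT and 3 and 3 of 17 against TOTAL. L1VL loci had 8 and 11 of 38 against BO, 13 and 6 of 43 against INPUT and 9 and 5 of 49 against TOTAL. L1_Mm loci had 4 and 1 of 5, 5 and 1 of 6, and 5 and 2 of 7 in the same order. The shares of all repeat loci given above are the background of these counts.

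The locus with the highest IP mean was L1_Mus3_32548, at 255 in IP and 132 in INPUT, at 195 in IP and 144 in BO, and at 254 in IP and 123 in TOTAL. L1_Mus1_25123 followed with 193 in IP and 51.4 in INPUT, and with 147 in IP and 29.0 in BO, 5.07 times higher. L1_Mus1_18066 had 154 in IP and 40.8 in INPUT, and 117 in IP and 29.6 in BO. Both L1_Mus1 loci were more than 2 times higher in IP in each table; as they were chosen for a high IP mean, this is a description only. L1VL2_3466, chosen likewise, had 158 in IP and 43.5 in INPUT and 121 in IP and 41.0 in BO. L1_Mur2_11364 had 161 in IP and 153 in INPUT and 123 in IP and 214 in BO.

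The highest locus of the other subfamilies in IP was L1_Mus2_9403 (91.0 in IP, 28.8 in INPUT), L1_Rod_6813 (83.0 and 38.9), L1_Mm_4279 (82.2 and 223), L1_Mur1_6137 (51.7 and 23.5), L1_Mus4_10249 (43.3 and 5.89), L1VL4_3721 (41.1 and 72.6), L1VL1_1679 (39.3 and 5.30) and L1_Mur3_24616 (33.3 and 15.3). Of these 8, L1_Mm_4279 and L1VL4_3721 were lower in IP than in INPUT. L1VL1_1679 and L1_Mus4_10249 were 7.41 and 7.36 times higher. These loci were chosen for their IP mean, which favours a high ratio, and their ratios are a description.

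The loci with the highest means in BO, INPUT or TOTAL were chosen on those means, which favours a lower IP mean, and their values are a description. L1_Mm_4279 had 1443 in BO and 62.1 in IP, 23.2 times lower, and 554 in TOTAL and 81.3 in IP, 6.82 times lower. L1VL4_5738 had 333 in BO and 31.0 in IP, 10.7 times lower, and 213 in INPUT and 40.6 in IP. L1VL2_3789 had 243 in INPUT and 95.3 in IP, and L1_Mus3_20841 had 148 in BO and 36.2 in IP. L1_Rod_5140 had 198 in TOTAL and 9.25 in IP, 21.3 times lower, while its mean in INPUT, 12.6, was close to its IP mean of 9.36 in that table. L1_Mm_4279, L1VL4_5738, L1VL2_3789 and L1_Mus3_20841 were lower in IP in all 3 tables, and L1_Rod_5140 was so by 2 times or more only against TOTAL. Chosen by the same rule, L1_Mus3_32548 was higher in IP in all 3 tables, and L1_Mur2_11364 was 1.05 times higher than in INPUT and 1.27 times higher than in TOTAL but lower than in BO.

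**Figure D4:**
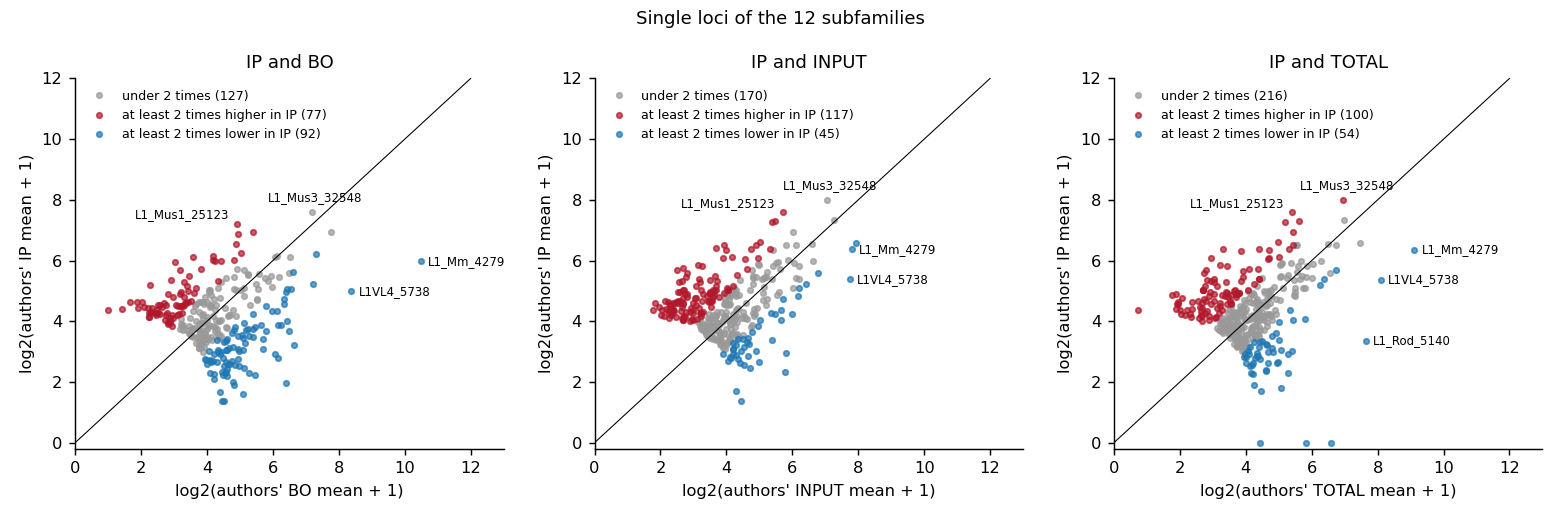
Authors' IP mean against the authors' BO, INPUT or TOTAL mean of single loci of the 12 subfamilies, both as log2(mean + 1), for loci whose 2 means average at least 10; the line marks equal means. Red loci (77, 117 and 100) are at least 2 times higher in IP and blue loci (92, 45 and 54) at least 2 times lower; 3 loci listed at 0 in IP lie on the lower edge of the TOTAL panel.

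Loci at the ends of the ratio range were singled out after their values were seen. Against BO, L1VL2_61 was lowest, at 84.2 in BO and 2.90 in IP, and L1_Mus3_11093 highest, at 1.004 in BO and 19.9 in IP. Against INPUT, L1_Mus2_706 was lowest (53.4 in INPUT, 3.97 in IP) and L1_Mus2_19767 highest (4.61 and 50.5). Against TOTAL, L1_Mus4_357 was highest, at 0.65 in TOTAL and 19.5 in IP. Another 3 loci were listed at 0 in IP with TOTAL means of 20.7 (L1_Mus1_3343), 55.5 (L1_Mm_57) and 95.0 (L1_Mur3_12433), and get no fold. L1VL2_61 was lower in IP by 2 times or more against BO alone, and its means in the table of IP and INPUT were 3.20 in INPUT and 3.80 in IP.

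One locus decided the summed value of a subfamily in several cases. Summed over its loci, L1_Mm had a log2 ratio of IP over BO of -1.58, and of 0.59 once L1_Mm_4279, which held 80.1% of the BO sum, was left out. The subfamily counts gave 0.70. Against TOTAL the L1_Mm sum had -0.38, and 0.59 without that locus. L1VL4 had -0.45 against BO and 0.08 without L1VL4_5738, which held 33.6% of the BO sum. L1_Rod had -0.14 against TOTAL and 0.09 without L1_Rod_5140. The sums of L1_Mur3, by contrast, stayed at -0.57 and -0.55 against BO with and without its highest BO locus, beside -0.62 from the subfamily counts.

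**Figure D5:**
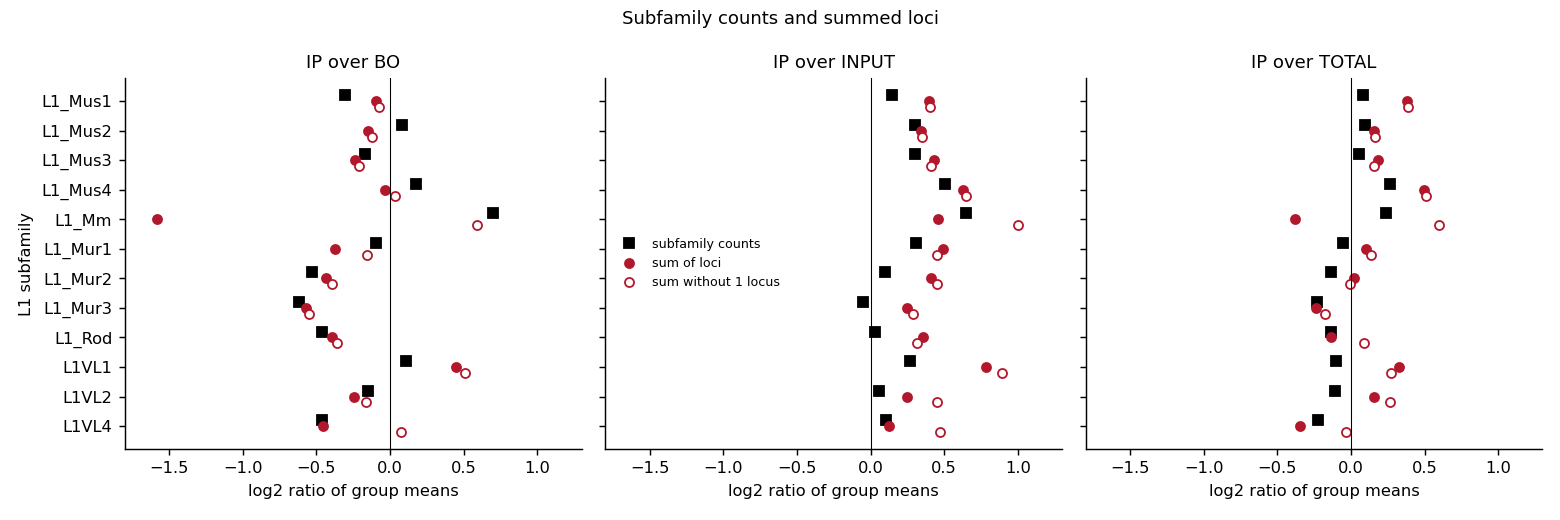
Log2 ratio of the IP mean to the BO, INPUT or TOTAL mean for each subfamily, from the subfamily counts (black squares), from the sum over its loci (filled red circles) and from that sum without the 1 locus highest in the other group (open circles). Against BO, L1_Mm stands at -1.58 with L1_Mm_4279 and at 0.59 without it, and L1VL4 at -0.45 and 0.08 without L1VL4_5738.

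The BO mean of L1_Mm_4279 (1443) was also above the mean BO count of its whole subfamily (1014), which is on another normalization. In BO the loci of L1_Mm summed to 1.78 times their subfamily count, and 0.354 times without that locus, where the other 11 subfamilies lay between 0.219 and 0.405. Whether both kinds of table hold the same reads for L1_Mm could not be checked. Where these loci lie, and in which genes, was not analysed here.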

How the data were processed

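RNA-seq libraries of 12 samples (TruSeq stranded, ribosomal RNA depleted) were used, 3 per group, grouped by their labels. Members, lists and tests were chosen with earlier results of these data known. For repeat names, the authors used STAR 2.6.0c to align to mm10, multiple hits allowed, reassigned ambiguous reads with Telescope, summed them per repeat name and deposited upper-quartile normalized counts, a signal that is not whole numbers. Where copies share sequence, the assignment of reads to single loci is uncertain. Dividing by the value of 1 read gave whole reads for 100% of values (within 0.1). The 3 locus tables hold the authors' group mean counts, normalized with DESeq2 1.24.0; how loci were counted is not given in the sources used here. Their fold changes, standard errors, test statistics, p-values and overall means are the authors' comparisons and were not used.

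Normalized counts were tested as log2(value + 1) with limma 3.58.1 (R 4.3.3; 1 fit of 4 groups, trended empirical Bayes, mean of at least 10) and Benjamini-Hochberg adjustment over 1180 subfamilies. The p-values are two-sided and measure only the spread between these samples. A call needed an absolute log2 fold change above 1 and an adjusted p under 0.05; members with the adjusted p alone were counted by direction. Alternatives were pseudocounts of 0.1 and 10, a minimum mean of 100 or none, library totals or median-ratio factors in place of the upper quartile, fits of 2 groups, a replicate block, edgeR 4.0.16 and DESeq2 1.42.0 on the recovered reads, and leaving out each library. On the recovered reads edgeR called 64 subfamilies higher and 35 lower in IP vs BO. The scripts were tested on simulated data. Locus ratios used group means averaging at least 10 and a threshold of 2 times, with 30 as an alternative minimum.

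Named were all 12 subfamilies, the 5 loci with the highest IP and the 5 with the highest other mean of each table, and the top IP locus of each subfamily. Sequences of loci were not analysed here. Same-numbered INPUT and TOTAL libraries deviated together over subfamilies (correlations of 0.63, 0.34 and 0.32), so the numbers were taken, from the data, to pair them.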

Additional observations from a re-analysis of the deposited data

How the results depend on the processing

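Scaling to library totals moved most counts. Past fold and adjusted p (0 as reported) were then 1 of the 12 subfamilies for IP vs BO. For IP vs INPUT they were 2 and for IP vs TOTAL 12. Past both of all 1180 subfamilies were 126 higher and 17 lower for IP vs BO. For IP vs INPUT these were 126 and 18, and for IP vs TOTAL 1014 and 17. The counts of the 12 are thus near the background. At the adjusted p alone, higher were 2 of the 12 in IP vs INPUT (142 of all 1180) and 12 in IP vs TOTAL (1070). Higher were also 8 in INPUT vs TOTAL (923) and 0 in BO vs INPUT (20), and lower 0 in IP vs BO (17). L1_Mus1 (0.19), L1_Rod (0.040) and L1VL4 (0.034) reversed in IP vs BO. Higher in IP vs BO, 1 as reported, were 2 with a mean of at least 100, beside 116 of all 752 subfamilies. They were 2 with median-ratio factors (184 of all 1180) or the replicate block (148). They were 3 with edgeR (181) or DESeq2 (188), and 1 to 2 with a library left out (106 to 134). Higher in IP vs INPUT were 3 to 5 with a library left out (86 to 106 of all 1180). Lower in INPUT vs TOTAL, 0 as reported, were 1 with median-ratio factors (12 of all 1180) or edgeR (13). They were 5 with DESeq2 (41), 6 with the block (32) and 0 to 1 with a library left out (5 to 14). Lower in IP vs TOTAL was 1 with the block (180 of all 1180). The numbers of the other comparisons pair the libraries less clearly: correlations were -0.01, 0.08 and 0.10 for IP and BO, -0.04, -0.13 and 0.05 for IP and INPUT, -0.06, -0.14 and 0.12 for IP and TOTAL, and 0.30, 0.06 and 0.56 for BO and INPUT. With the block 2 were higher and 6 lower in IP vs BO, beside 148 and 303 of all 1180 subfamilies. Higher were 7 in IP vs INPUT (150 of all 1180) and 10 in BO vs INPUT (205). Each of the 21 passing results passed again. Of these 21, 4 passed under every alternative; the other 17 failed or reversed in at least one, most often (14 failing, 3 reversed) under library totals, where 12 of the 14 (3 in IP vs INPUT and 9 in BO vs INPUT) had a larger log2 fold change than reported. With all LINE, SINE, LTR and DNA counts as the denominator, the log2 difference of the share of the 12 was -0.092 for IP vs BO, 0.24 for IP vs INPUT, -0.012 for IP vs TOTAL, -0.25 for INPUT vs TOTAL and 0.33 for BO vs INPUT, in place of -0.52, -0.39, -0.49, -0.10 and 0.13 with L1 counts. Loci at least 2 times higher and lower in IP were 13 and 24 of 63 (BO), 18 and 13 of 68 (INPUT) and 23 and 8 of 66 (TOTAL) with an average of at least 30, that is 20.6%, 26.5% and 34.8% higher beside 18.7%, 24.7% and 29.9% of all repeat loci. The shares against BO and INPUT were then near those of all repeat loci. After dividing by the median ratio of all loci they were 133 and 45 (BO) and 135 and 28 (INPUT; 40.7% and 8.43%, beside 27.7% and 26.5% of all repeat loci). The 10 highest loci held 11.6%, 7.29% and 7.93% of the BO, INPUT and TOTAL sums in place of 5.56%, 5.55% and 5.57% of IP. Causes were not tested.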

Other observations

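Some loci that were at least 2 times higher or lower in IP carried consecutive numbers within a subfamily. L1_Mus4_10248, L1_Mus4_10249 and L1_Mus4_10250 were 30.4, 43.3 and 38.1 in IP and 4.83, 5.89 and 4.87 in INPUT. L1_Mus2_705 and L1_Mus2_706 were 6.68 and 3.97 in IP and 54.8 and 53.4 in INPUT. The files do not say how the numbers were given, how often other repeat loci do this was not counted, and these loci were noticed after their values were seen.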
